A study of Mus musculus with 18 samples.

Results

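The set described here holds 7 genes whose enzymes modify clock proteins after they are made: the protein kinase genes Csnk1d, Csnk1e, Csnk2a1 and Gsk3b, the ubiquitin ligase subunit genes Fbxl21 and Btrc, and the deubiquitinase gene Usp2. They were chosen by name from 21887 protein-coding genes of the RefSeq annotation. A ChIP-seq peak was assigned to a gene when the centre of the peak lay inside the gene or within 10 kb of either end. By this rule the 7 genes had 13 of the 11366 peaks of the study, at 7 of its 9005 separate sites. Of these 13 peaks, 10 were at Usp2.

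The data were BMAL1 chromatin immunoprecipitation sequencing (ChIP-seq) and input libraries from the liver, kidney and heart of the same wild-type C57BL/6 mice, aged 3 to 6 months, which had free access to food, were kept in cycles of 12 h light and 12 h dark, and had their tissues taken at ZT06, 6 h after lights on. Each tissue had 3 ChIP and 3 input libraries, 18 in all. The ChIP antibody was an affinity-purified chicken antibody against the N-terminal domain of mouse BMAL1. The heart inputs carry the word kidney in their source field but heart in their titles and tissue fields. Which field is right could not be checked, and this bears on every heart value below.

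Binding was read from 1 peak list per tissue, made by the authors from all replicates of the tissue together, so no value below has a spread between animals and no test between tissues could be made. There were 4813 peaks in liver, 4034 in kidney and 2519 in heart, and the read depth behind these lists is unknown. Each peak carries a whole-number score from the authors, whose median was 40 for liver, 28 for kidney and 25 for heart. The score has no stated scale, so it is given with its rank within its own list (rank 1 is the highest score, and tied peaks have their mean rank) and is not compared between lists. The tissue labels could not be settled from marker genes in peak data. Of 5 marker genes per tissue, 1 liver marker had a liver peak and none had a kidney or heart peak. Kidney markers had a kidney peak at 2 genes, a liver peak also at 2 and a heart peak at 1. Heart markers had a heart peak at 2 genes, a liver peak at 1 and a kidney peak at 1.

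BMAL1 pairs with CLOCK and binds E-box sequences, driving the Per and Cry genes, whose proteins return to the nucleus and repress the pair. How long this loop takes depends on the life of the PER and CRY proteins. Casein kinase 1 delta and epsilon (Csnk1d, Csnk1e) phosphorylate PER, and beta-TrCP (Btrc) then brings phosphorylated PER to a ubiquitin ligase for breakdown. FBXL21 is an F-box protein that acts on CRY, casein kinase 2 (catalytic subunit alpha, Csnk2a1) and glycogen synthase kinase 3 beta (Gsk3b) phosphorylate several clock proteins, and USP2 removes ubiquitin from clock proteins. The series compared where BMAL1 binds in the 3 tissues, and the results below give that binding at the genes of these enzymes.

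BMAL1 peaks in all 3 tissues were found at 1 of the 7 genes, Usp2, which had 4 sites; of all protein-coding genes 4.35% had a peak in all 3 lists. At 3 of these sites a peak was present in liver, kidney and heart, and the fourth was in the kidney list alone. Csnk2a1 had 1 peak in liver, and Fbxl21 and Btrc had 1 peak each in heart. Csnk1d, Csnk1e and Gsk3b had no peak in any list. The genes with a peak thus numbered 2 of 7 in liver, 1 of 7 in kidney and 3 of 7 in heart, where 18.1, 18 and 11.5% of all protein-coding genes had a liver, kidney or heart peak. The one promoter of the set that held peak centres, that of Usp2, is shown here because a site found in all 3 tissues lay over it. It is the RefSeq window from 250 bp before to 50 bp after the annotated start (build GRCm38.p6, chr9:44084670-44084969, plus strand, 5′ to 3′), and capitals mark the 178 bases that lay within the peaks of all 3 lists.
Usp2: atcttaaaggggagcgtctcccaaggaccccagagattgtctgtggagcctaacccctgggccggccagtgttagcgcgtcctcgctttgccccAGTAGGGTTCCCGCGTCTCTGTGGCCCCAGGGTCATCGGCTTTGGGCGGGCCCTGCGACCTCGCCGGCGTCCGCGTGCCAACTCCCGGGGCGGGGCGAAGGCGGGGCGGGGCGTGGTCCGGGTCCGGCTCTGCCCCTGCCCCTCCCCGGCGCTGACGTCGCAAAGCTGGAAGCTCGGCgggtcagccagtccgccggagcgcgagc

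The window holds neither the E-box CACGTG nor its variant CACGTT or AACGTG on either strand, and no CANNTG. RefSeq promoter windows were on hand for 5 of the 7 genes, 8 windows in all, since Csnk1e has 4. None of the 8 holds CACGTG, and none holds CACGTT or AACGTG. The looser CANNTG, which includes CACGTG, is in 1 window of Csnk1e and in the window of Csnk2a1. Of all 32851 promoter windows of 300 bp, 7.15% hold CACGTG, 4.68% hold CACGTT or AACGTG, and 72.3% hold CANNTG. Among the 229 windows that held the centre of a peak found in all 3 tissues, as the Usp2 window did, 134 hold CACGTG (58.5%) and 27 hold CACGTT or AACGTG (11.8%). These matches describe letters within 300 bp only. The sequences under the peaks at the other sites of the 7 genes were not used here.

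The 4 sites at Usp2 all lay inside the gene (chromosome 9, 44067021 to 44095627, 28.6 kb). Distances are given from the annotated start of the printed window, which lies 17.9 kb inside the first coordinate of the gene because the annotated gene begins further upstream. The table used here does not give exons and introns, so the sites are placed by distance only.

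The site over the start, at 0.07 kb before it on average, had 157 as its score in liver (rank 126), 147 in kidney (rank 69.5) and 96 in heart (rank 155.5). The liver peak covers chromosome 9, 44084727 to 44084968, the kidney peak 44084764 to 44084951 and the heart peak 44084744 to 44084941. In each list this site stood within the top 6.17% of peaks. The long non-coding RNA gene Gm39325, on the opposite strand, has an annotated start at 44084990, 70 bp downstream of the Usp2 start. All 3 peaks end before that position, so they lie near the Gm39325 start but do not cover it. The nearest centre, that of kidney, is 0.133 kb from it. The promoter window of Gm39325 at that start holds none of the 3 motifs either, but most of that window lies outside the peaks.

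The next site lay 1.13 kb downstream of the start, 1.2 kb from the first. Its scores were 161 in liver (chromosome 9, 44085923 to 44086164, rank 109.5), 90 in kidney (44085957 to 44086144, rank 260.5) and 101 in heart (44085945 to 44086142, rank 137.5). In liver and heart this was the highest of the Usp2 peaks by a small margin, 161 against 157 and 101 against 96. In kidney the order was the other way, 90 against 147 at the start. With 1 pooled list per tissue, whether these orders hold from animal to animal was not tested.

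The site found in kidney alone lay 2.16 kb downstream of the start (chromosome 9, 44086988 to 44087175), with a score of 65 at rank 520 of 4034, within the top 12.9% of the kidney list. The kidney peaks of these 3 sites formed a row, with 1193 bp between the kidney centres of the site over the start and its neighbour and 1031 bp from there to the kidney-only site. The liver and heart lists had no peak at the kidney-only site, and the lists do not show whether signal below the authors' threshold was present there.

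The remaining site lay 5.69 kb upstream of the start and 12.2 kb inside the gene, within both Usp2 and Gm39325. Its scores were 27 in liver (chromosome 9, 44079107 to 44079348, rank 3516.5), 38 in kidney (44079155 to 44079342, rank 1321.5) and 48 in heart (44079127 to 44079324, rank 512.5). The liver score was under the median of its list, and the kidney and heart scores were above theirs. It was the lowest of the Usp2 sites in every list. Peak centres of the 3 tissues lay within 23 bp of each other at this site, 15 bp at the start and 7 bp at the site 1.13 kb downstream.

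**Figure D1:**
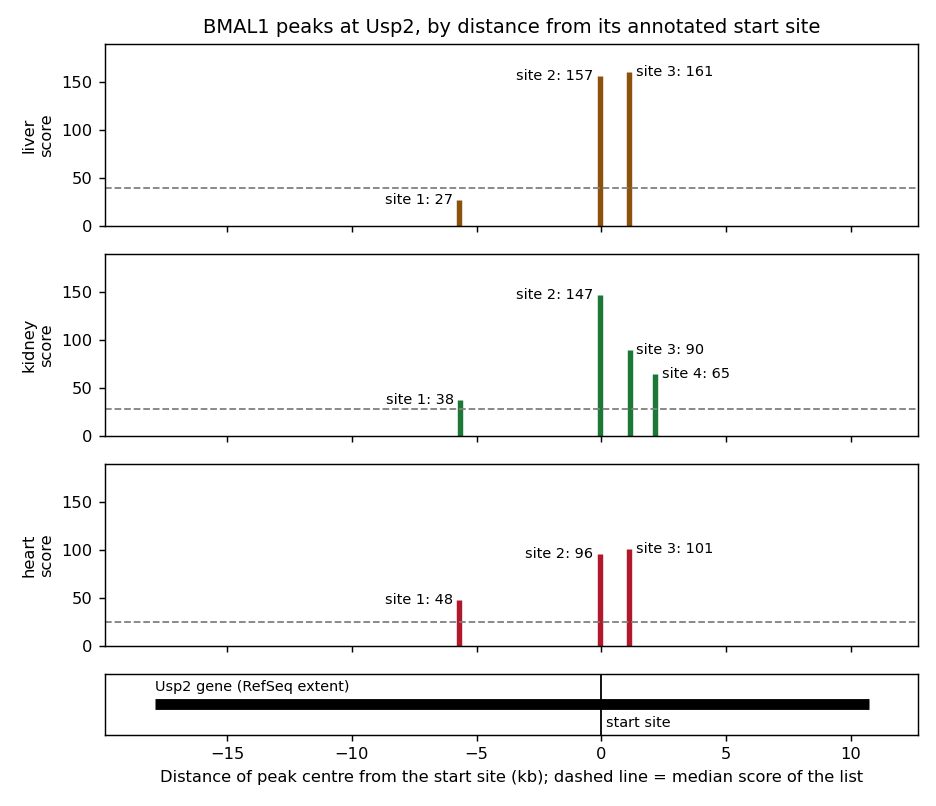
Score of each Usp2 peak (vertical axis, authors' score, 1 panel per tissue) against the distance of its centre from the annotated start in kb (horizontal axis), with the median score of each list as a dashed line and the RefSeq extent of the gene as a bar. The 3 sites with a peak in every panel lie 5.69 kb upstream, at the start and 1.13 kb downstream, and the site with a score of 65 appears in kidney only; scores are not on a known common scale between panels.

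Sites found in all 3 tissues made up 5.76% of all sites in the study (519 of 9005), and 79.5% were found in 1 tissue. Among those 519 common sites, ordered by score in each list, the Usp2 start site was at rank 102.5 in liver, 68.5 in kidney and 145.5 in heart, and the site 1.13 kb downstream at 91, 199.5 and 129.5. Both scored above the median common site of each list (99 for liver, 76 for kidney and 69 for heart). The upstream site scored below it in every list, at rank 508, 453 and 370 of 519.

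Few genes had as many common sites as Usp2. Of the 21887 protein-coding genes, 676 had a common site by the same 10 kb rule (3.09%), 38 had at least 2 (0.174%) and 10 had 3 (0.0457%), the largest number at any gene. Besides Usp2, the 10 were the clock repressor genes Nr1d1, Bhlhe40 and Bhlhe41, the output transcription factor genes Dbp, Tef and Hlf, the Krüppel-like factor gene Klf9, and Car11 and Sphk2, whose best peaks had the same ranks as those of Dbp in each list. Neighbouring genes can share sites, so these are not 10 independent loci. The count of 3 at Usp2 includes the upstream site, whose liver peak had a score of 27 at rank 3516.5. With only the upper 50% of each list, or with lists of equal length, Usp2 had 2 common sites. The counts over all genes were not recomputed with those limits. Usp2 had the lowest-ranked best peak of the 10 in each list. In liver its best rank was 109.5, with Hlf next at 106.5. In kidney the values were 69.5 for Usp2 and 60.5 for Hlf. In heart they were 137.5 for Usp2 and 46 for Klf9.

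Usp2 was set beside the Per and Cry genes, whose proteins are among those these enzymes act on. Genes of other clock proteins were not part of this comparison. With the full lists, Per1, Per2 and Cry2 had 2 common sites each and Per3 and Cry1 had 1 each, against 3 at Usp2. The Per and Cry genes were not recounted with the upper 50% of each list, where Usp2 had 2. The best peaks of the Per and Cry genes ranked higher than that of Usp2. In liver the best ranks ran from 4 at Per1 to 35.5 at Cry1, in kidney from 7 at Per1 to 27.5 at Cry1, and in heart from 7 at Cry2 to 24 at Cry1. Over the 953 genes with a peak in all 3 lists, the mean percent rank of the best peak had a median of 17.2%, and it was 3.15% for Usp2, with 125 genes lower.

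**Figure D2:**
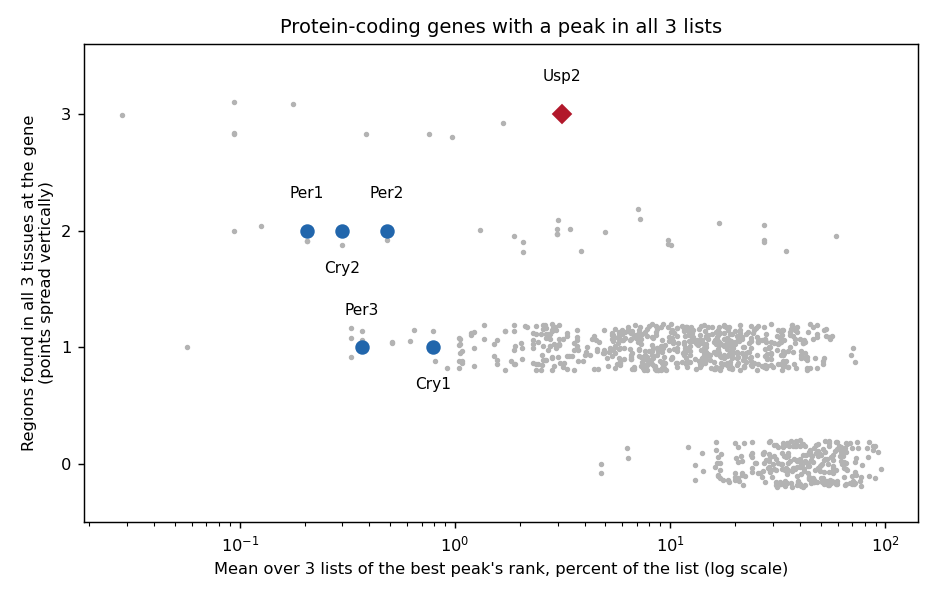
Each of 953 protein-coding genes with a peak in all 3 lists is a point, by the mean rank of its best peak as a percent of the list (horizontal axis, log scale) and by its number of sites found in all 3 tissues (vertical axis, points spread for display). Usp2 (diamond) lies at 3.15% with 3 such sites, to the right of the Per and Cry genes (filled circles), which have 1 or 2.

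A best peak at least as high as that of Usp2 in its list was present at 138 genes in liver (0.631% of protein-coding genes), 93 in kidney (0.425%) and 183 in heart (0.836%), Usp2 included. In all 3 lists at once it was present at 61 genes (0.279%). The genes most like Usp2 by the percent ranks of their best peak over the 3 lists were Ppp1r35, Mepce and Zcwpw1, each at a distance of 0.931 percentage points. All 3 had best peaks at 2.48% in liver, 1.41% in kidney and 4.61% in heart, where Usp2 had 2.28, 1.72 and 5.46%. This likeness rests on 3 values per gene. Those 3 genes had identical values in every list and 1 common site each. They may therefore share 1 site, and they are not read as 3 independent matches.

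The 4 kinase genes had 1 peak between them. At Csnk2a1 (chromosome 2, 152226535 to 152281856, 55.3 kb), the liver peak at 152238078 to 152238319 had a score of 24. Its rank was 3891.5 of 4813, shared by the 138 peaks of that score, which is 80.9% down the liver list. It lay inside the gene, 11.4 kb downstream of the annotated start, and no other protein-coding gene had an end nearer to it. The kidney and heart lists had no peak within 10 kb of the gene.

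Csnk1d (chromosome 11, 120957709 to 120991350, 33.6 kb) had no peak, and the nearest ones outside its window were 61.2 kb away in kidney (score 19), 127 kb in liver (score 27) and 170 kb in heart (score 22). Csnk1e (chromosome 15, 79417852 to 79455579, 37.7 kb) was closer to a bound site. Its nearest liver peak lay 29.5 kb away with a score of 62 (rank 1271.5), its nearest heart peak 50.3 kb away with a score of 27 and its nearest kidney peak 52 kb away with a score of 39. Gsk3b (chromosome 16, 38089001 to 38246084) spans 157 kb and held none. Peaks lay 33.8 kb away in liver (score 53), 146 kb in heart (score 37) and 217 kb in kidney (score 76). A missing peak means only that nothing passed the authors' threshold in the pooled libraries at this time of day.

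The heart peaks at the 2 ubiquitin ligase genes had the lowest score of the heart list, 16, which 305 of its 2519 peaks share, so both had rank 2367. At Fbxl21 (chromosome 13, 56522388 to 56537898, 15.5 kb) the peak at 56529845 to 56530042 lay inside the gene, 7.47 kb downstream of its annotated start. It also lay inside Lect2, a neighbouring gene that overlaps Fbxl21, and 0.209 kb from the nearer end of that gene. At Btrc (chromosome 19, 45363688 to 45533343, 170 kb) the peak at 45486232 to 45486429 lay inside the gene, 47 kb from its nearer end. Neither gene had a liver or kidney peak, and the next heart peak beyond the window was 26.9 kb from Btrc (score 22) and 116 kb from Fbxl21 (score 18).

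**Figure D3:**
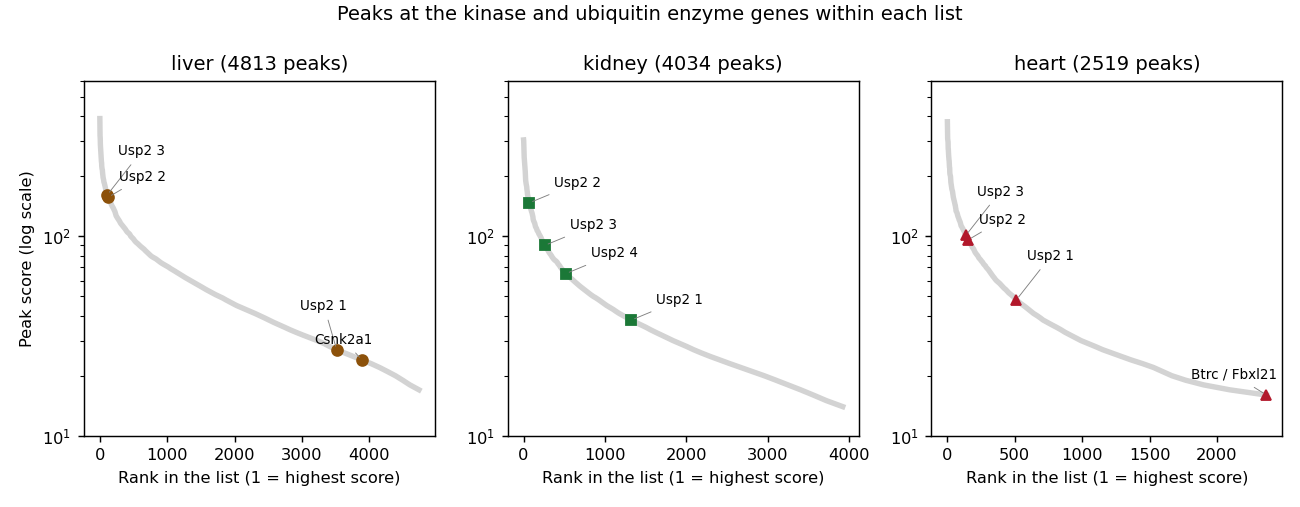
Score (vertical axis, log scale) against rank for every peak of each list (grey line), with the peaks at the 7 genes marked; numbers after Usp2 count its sites from the upstream one. The Usp2 peaks at and near the start lie on the steep left end of each curve, while the peaks of Csnk2a1, Fbxl21 and Btrc lie at the right end, with scores of 24, 16 and 16.

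No peak of the set lay near the limit of the 10 kb rule. All 13 lay inside a gene of the set, and the nearest peak left out was the heart peak 26.9 kb from Btrc, followed by the liver peak 29.5 kb from Csnk1e. Counting peaks within 50 kb gave Csnk1e and Gsk3b a liver peak each, Csnk2a1 a pair of further heart peaks and Btrc another, but no further site common to all tissues. With only the upper 50% of each list by score, Usp2 alone kept peaks, and 2 of its sites remained common to all 3 tissues, since the upstream liver peak fell away. The shares of all protein-coding genes were not computed for 50 kb or for the upper 50%.

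A peak in some list was found at 4 of the 7 genes, against 30.7% of all protein-coding genes. Longer genes hold peaks more often. Of protein-coding genes of at least 100 kb, such as Gsk3b and Btrc, 48.4% had a peak in some list, and of those from 15 to under 100 kb, as the other 5 genes are, 36.6% had one. With 7 genes these counts are a description, and nothing particular to the set is read from them.

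Other genes of the same regulatory layer were counted from a list of 32, made of 17 kinase and phosphatase genes and 15 genes of the ubiquitin system. A peak in some list was found at 14 of the 32 (43.8%, against 30.7% of all protein-coding genes). A liver peak was found at 9 (28.1%, against 18.1%), a kidney peak at 10 (31.2%, against 18%) and a heart peak at 6 (18.8%, against 11.5%). Common sites were found at 4 of them (12.5%, against 3.09% of all protein-coding genes): Mapk8, Gsk3a, Siah2 and Cul4b. Gene length was not matched in any of these shares, and whether it bears on them was not tested.

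Mapk8 encodes the kinase JNK1, which can phosphorylate BMAL1, and had the highest peaks of the list. Its scores were 197 in liver (rank 49), 139 in kidney (rank 84.5) and 129 in heart (rank 75), all at 1 site at the 5′ end of the gene. The centres lay just beyond the outer end of the annotated gene, by 0.0825 kb in liver, 0.0225 kb in kidney and 0.0045 kb in heart. Siah2, a ubiquitin ligase gene, had a site just inside its nearer end (0.272 kb for its best-ranked peak, that of heart) with scores of 67 in liver, 53 in kidney and 62 in heart. Gsk3a, the paralog of Gsk3b, had scores of 77, 81 and 67 in liver, kidney and heart at a site outside the gene (7.57 kb for its best-ranked peak, that of kidney), and the protein-coding gene with the nearest end there is Dedd2. A second kidney peak near Gsk3a, of its own site, had a score of 22. Cul4b, a scaffold gene of cullin ubiquitin ligases, had scores of 51, 35 and 29 at a site inside the gene, 11.5 kb from its nearer end for its best-ranked peak, that of liver.

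Relatives of the casein kinases and of Btrc had a low kidney peak or none. Fbxw11, the paralog of Btrc, had a kidney peak with a score of 14, the lowest of that list. Csnk1g3 had a kidney peak with a score of 19. Csnk1a1, Csnk1g1, Csnk1g2, Csnk2a2 and Csnk2b had none. Of the genes for the core subunits that work with F-box proteins such as BTRC, Cul1 had a kidney peak with a score of 22, Rbx1 had a liver peak with a score of 42 lying 4.89 kb outside the gene, and Skp1a had none.

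Ddb1, an adaptor gene of cullin 4 ligases, had a liver peak with a score of 75 and a kidney peak with a score of 86 over its start, and no heart peak. A second site, 5.21 kb outside the gene for its liver peak, had scores of 47 in liver and 24 in kidney. Its promoter and that of Mapk8 are shown as the other promoters of this layer with a RefSeq window that peaks of more than 1 tissue covered. Both are RefSeq windows of GRCm38.p6, 5′ to 3′, on the minus strand at chr14:33447109-33447408 for Mapk8 and on the plus strand at chr19:10605347-10605646 for Ddb1. Capitals mark the 94 bases of the Mapk8 window that lay within the peaks of all 3 lists and the 171 bases of the Ddb1 window within the liver and kidney peaks.
Mapk8: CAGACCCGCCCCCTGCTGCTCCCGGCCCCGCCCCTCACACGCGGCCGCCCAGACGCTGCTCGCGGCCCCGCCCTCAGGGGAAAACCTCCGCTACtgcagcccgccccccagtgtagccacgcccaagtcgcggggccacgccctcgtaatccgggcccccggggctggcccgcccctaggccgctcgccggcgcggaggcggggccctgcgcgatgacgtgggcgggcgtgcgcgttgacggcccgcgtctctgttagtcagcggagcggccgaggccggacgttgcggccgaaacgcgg
Ddb1: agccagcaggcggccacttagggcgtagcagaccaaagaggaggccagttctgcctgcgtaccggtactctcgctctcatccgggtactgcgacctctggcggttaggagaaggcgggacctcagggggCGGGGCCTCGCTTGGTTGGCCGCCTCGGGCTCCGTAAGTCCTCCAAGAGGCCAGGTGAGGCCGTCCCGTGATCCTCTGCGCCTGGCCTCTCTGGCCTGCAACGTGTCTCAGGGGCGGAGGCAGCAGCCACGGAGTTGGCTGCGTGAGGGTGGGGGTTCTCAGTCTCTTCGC

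The start used for the Mapk8 window lies inside the outer end of the gene, so the kidney and heart centres fell in the window and the liver centre fell outside it. The Mapk8 window holds none of the 3 motifs. The Ddb1 window holds 1 AACGTG, which begins 22 bp before the annotated start and lies in the capitals, and it holds no E-box of the CACGTG form.

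**Figure D4:**
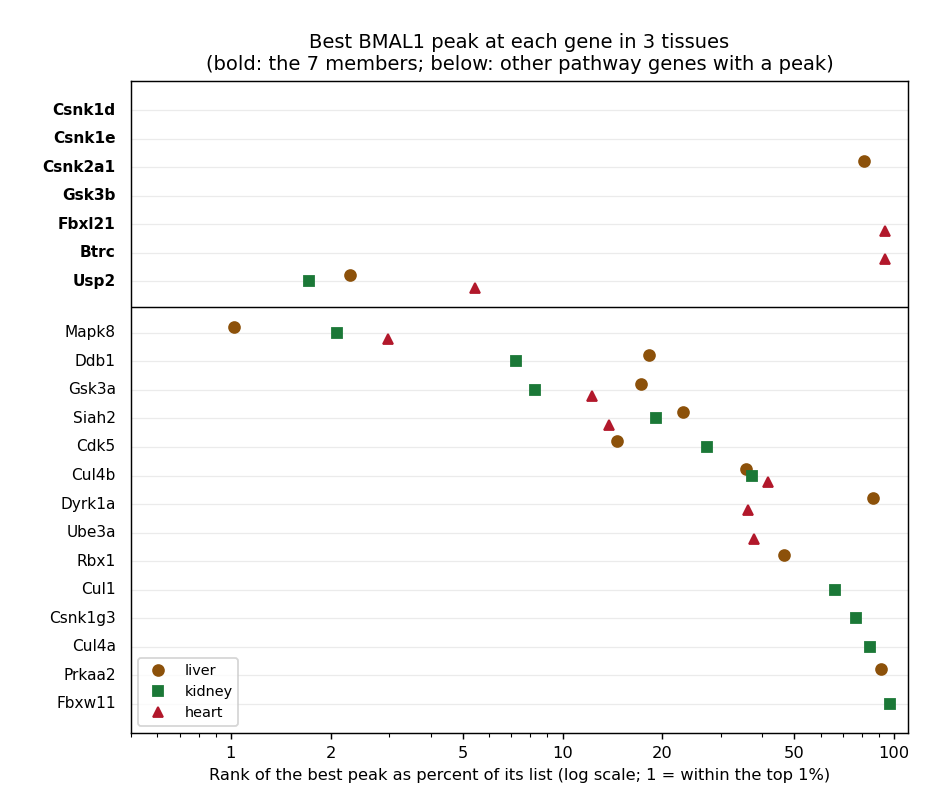
Rank of the best peak at each gene as a percent of its list (horizontal axis, log scale), for liver (circles), kidney (squares) and heart (triangles); a missing symbol means no peak within 10 kb. Of the 7 genes of the set (bold), Usp2 has all 3 symbols, at 2.28, 1.72 and 5.46%, and of the pathway genes Mapk8 lies furthest left, at 1.02% in liver.

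Within the gene families of the ubiquitin system, 23 of 50 genes whose symbol is Usp and a number had a peak in some list (46%), against 30.7% of all protein-coding genes. A site common to all tissues was found at 6 (12%, against 3.09%): Usp2, Usp3, Usp12, Usp28, Usp33 and Usp36. Usp2 had 3 such sites and the other 5 had 1 each. The highest peaks among these 6 genes were at Usp3, with best ranks at 0.187% of the liver, 0.198% of the kidney and 0.595% of the heart list. The mean percent rank of its best peak, 0.327%, and its count of common sites, 1, were the same at Herc1 and Fbxl22. The site may thus be shared by neighbouring genes, and Fbxl22 is among the F-box genes with a common site counted next. Of 78 F-box genes (symbols Fbxl, Fbxo or Fbxw and a number), 28 had a peak (35.9%) and 3 had a common site (3.85%), to be read against the same 30.7% and 3.09%. These families were chosen after the values at Usp2 had been seen, and their shares are not matched for gene length.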

How the data were processed

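BMAL1 ChIP-seq peak lists of liver, kidney and heart were analysed. Per the series' design text, the authors made each list from all ChIP and input replicates of a tissue together. Per the submitters' processing notes, Bowtie2, SAMtools and HOMER were used with the build mm10; their roles and settings are not stated there. The score that the authors deposited for each peak has no stated meaning. Per the labels' protocols, 10 ng went into each library, amplified for 16 cycles and sequenced to 75 bp. Depth per library is unknown, so no interval for it is given.

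Genes came from the RefSeq table of GRCm38.p6, the same assembly as mm10. Peaks overlapping by at least 1 bp were joined into sites. Genes were counted with Python 3.11.15 and pandas 2.3.3, tested on simulated peaks. No statistical test was run, since each tissue is 1 list. Coordinates count from 1. The 7 genes and all lists were chosen with earlier results of these data known. All 7 genes are named, with the pathway genes that had a common site or the best peak of a list and 3 genes of like pattern; Ddb1, relatives of the members and ligase core subunits were named after their values were seen. The pathway list first held 1 more gene, which is left out of its counts and not reported here. Windows, score limits, overlap rules and motifs were varied.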

Additional observations from a re-analysis of the deposited data

How the results depend on the processing

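Counts were recomputed with other windows, score limits, overlap rules and motifs. Within 50 kb of the genes, 4 of the 7 had a liver peak in place of 2, the sites rose from 7 to 12 and the sites in 1 tissue from 4 to 9. With the upper 50% of each list, 1 gene had a liver peak, 1 gene in place of 3 had a heart peak, and 4 sites were left, 1 of them in 1 tissue. With the lists cut to equal length by score, 1 gene had a liver peak. The shares of all protein-coding genes were computed with the 10 kb rule and the full lists only. These recomputed counts thus have no like share to be read against. Allowing CANNTG put a match in 2 member promoters in place of 0. The other 35 counts stayed within 1.5 times the value given. Usp2 had 2 sites common to all tissues with the upper 50% and with equal list lengths, and 3 in the other settings. No paired analysis was possible because each tissue has 1 list pooled over its replicates, and for the same reason no replicate could be left out.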
